A study of Mus musculus with 10 samples.

Results

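The genes described here cut proteins into peptides and load those peptides onto MHC class I molecules: the inducible catalytic subunits of the immunoproteasome (Psmb8, Psmb9, Psmb10), its activator (Psme1, Psme2), the peptide transporter (Tap1, Tap2), the peptide editors tapasin and its relative (Tapbp, Tapbpl) and the class I transactivator Nlrc5. Members were all probe sets whose only gene symbol in the platform annotation was 1 of these 10 genes. That gave 15 probe sets of 9 genes, among 45037 probe sets and 18193 genes in all. The array's probe set for Psme2 lists a second gene as well, so Psme2 was not analysed here.

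Hippocampi were compared between 2 groups of adult female SJL/J mice, all killed at 2 days after the lesion. In TPlp+AxL, 5 mice received T cells specific for the myelin proteolipid protein by adoptive transfer and then had an axonal lesion. In AxL, 5 mice had the axonal lesion alone. Every mouse was therefore lesioned, and the comparison is of T cell transfer on top of a lesion. Each array held total RNA of the whole hippocampus of 1 mouse, and values are the authors' log2 RMA expression values, on which a difference of 1 is a doubling of signal. Transcripts of all hippocampal cells and of any cells that entered are mixed in such RNA, so more cells of a type and more RNA per cell cannot be told apart.

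Proteasomes degrade proteins in every cell with 3 constitutive catalytic subunits. When interferon gamma acts on a cell, Psmb9, Psmb10 and Psmb8 are built into new proteasomes in place of Psmb6, Psmb7 and Psmb5, and the peptides that result are often well suited to class I molecules. Tap1 and Tap2 form the pump that carries these peptides into the endoplasmic reticulum, where tapasin holds the class I molecule at the pump until a stable peptide is bound. In the healthy brain several of these genes are expressed at a low level, and they can be induced during inflammation.

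Median signal was 7.88 to 7.92 on the 10 arrays. Probe sets of high signal had slightly lower values in TPlp+AxL, with a median change of -0.10 at mean levels of 10 to 11, -0.11 at 11 to 12 and -0.14 above 12, and this shift was near 0 after cyclic loess normalization. The mean of 6 choroid plexus markers was 10.10 in TPlp+AxL 1, 10.95 in AxL 3 and 10.06 in AxL 5, and it lay between 8.61 and 8.76 on the other 7 arrays. Those 3 arrays stood apart in that respect, and results are also given without them. Of 10 markers of hippocampal neurons 0 passed the threshold in limma (0 with an unadjusted p under 0.05), and the mean of the list ran from 9.71 to 9.83 in TPlp+AxL and from 9.72 to 9.93 in AxL. Of 6 general neuronal markers 0 passed (4 lower with an unadjusted p under 0.05), though all 6 log2 changes were negative, with a median of -0.19 that was -0.05 after cyclic loess normalization. Of 5 oligodendrocyte markers 0 passed (4 lower with an unadjusted p under 0.05), with a median of -0.21, and of 6 astrocyte markers 0 passed (2 lower with an unadjusted p under 0.05), with a median of -0.08 that was 0.01 after cyclic loess normalization.

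Calls rest on limma, with p-values adjusted (Benjamini-Hochberg) across the 45037 probe sets and called under 0.05. By that rule 4 of the 15 member probe sets were higher in TPlp+AxL and 0 were lower (also 0 lower with an unadjusted p under 0.05). Over all probe sets 0.646% were higher and 0.189% lower. Taking 1 probe set per gene, its brightest, 4 of 9 genes were higher and 0 lower, where 0.978% of all genes were higher and 0.28% lower. These 4 genes were Psmb9, Nlrc5, Tap1 and Tapbpl. In 5 member probe sets, 1 each of Psmb8, Psmb9, Tap1, Tapbpl and Nlrc5, all 5 TPlp+AxL arrays lay above all 5 AxL arrays, which held for 1.94% of all probe sets. The same 5 of 9 genes were apart by their brightest probe sets, against 2.2% of all genes. The median log2 change was 0.66 over the 9 genes, against -0.03 over all genes, and 0.25 over the 15 probe sets, against -0.003 over all probe sets. With an unadjusted p under 0.05 there were 9 of the 15 probe sets, against 14.3% of all probe sets.

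**Figure D1:**
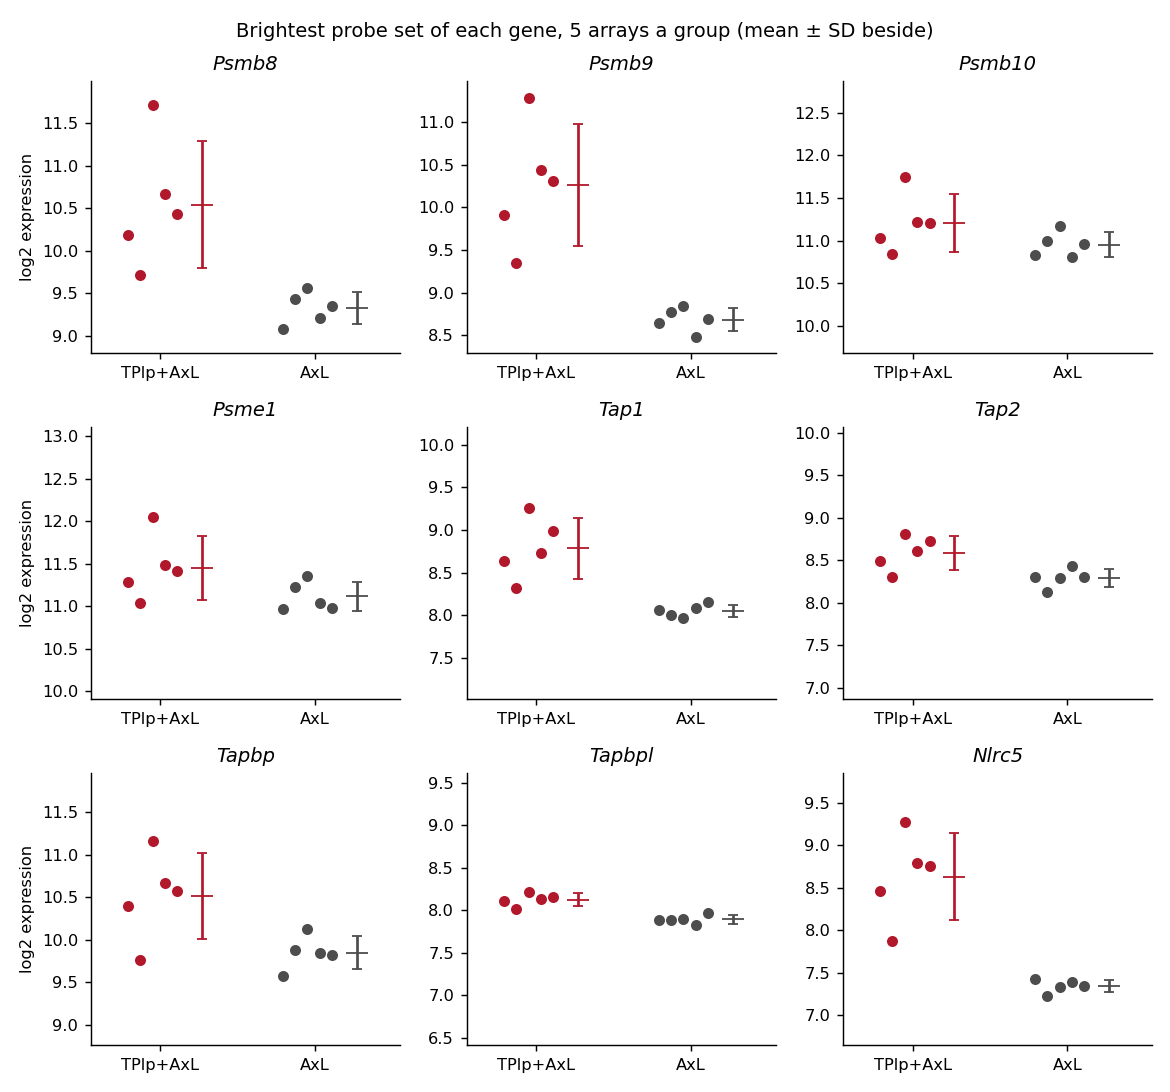
Log2 expression of the brightest probe set of each of the 9 genes. Each point is 1 array, drawn in the order of replicate numbers 1 to 5, with TPlp+AxL left and AxL right, and the cross and bar beside the points give the mean ± SD (n = 5). Every panel spans the same number of log2 units. The groups do not overlap for Psmb8, Psmb9, Tap1, Tapbpl and Nlrc5, and the TPlp+AxL points are more widely spread in all 9 panels.

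Of the immunoproteasome subunits Psmb9 passed the threshold and Psmb8 and Psmb10 did not, and whether they changed unequally was not tested. Psmb9, which takes the place of Psmb6, had log2 values of 9.91, 9.35, 11.29, 10.44 and 10.31 in TPlp+AxL 1 to 5, against 8.64, 8.77, 8.84, 8.48 and 8.69 in AxL 1 to 5 (probe set 1450696_at). Every TPlp+AxL array was above every AxL array, with a gap of 0.51 between them. Psmb9 averaged 10.26 ± 0.72 in TPlp+AxL and 8.68 ± 0.14 in AxL (SD, n = 5 each), a 2.98-fold higher signal with a 95% interval of 1.97 to 4.53 (log2 change 1.58, SE 0.27, limma adjusted p = 0.0209). This was the largest change among the 15 member probe sets. Its call was lost without TPlp+AxL 4 (limma adjusted p = 0.0734), TPlp+AxL 5 (adjusted p = 0.0630), AxL 1 (adjusted p = 0.0561) or AxL 5 (adjusted p = 0.0649), with a log2 change of at least 1.32 whichever array was left out.

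Psmb8, which takes the place of Psmb5, had log2 values of 10.18, 9.72, 11.71, 10.67 and 10.43 in TPlp+AxL 1 to 5, against 9.08, 9.43, 9.56, 9.21 and 9.36 in AxL 1 to 5 (probe set 1422962_a_at). The groups did not overlap, though the gap of 0.16 between the lowest TPlp+AxL and the highest AxL array was narrow beside the spread of the TPlp+AxL arrays. With means of 10.54 ± 0.74 in TPlp+AxL and 9.33 ± 0.19 in AxL (SD, n = 5 each), the 2.33-fold difference missed the threshold (log2 change 1.22, SE 0.29, 95% interval 0.59 to 1.85, limma adjusted p = 0.0900). The call was made without TPlp+AxL 2 (log2 change 1.42, limma adjusted p = 0.0305) or without TPlp+AxL 3 (log2 change 0.93, limma adjusted p = 0.0462). A dimmer Psmb8 probe set, 1444619_x_at, had a log2 change of 0.24 (limma adjusted p = 0.181) and overlapping groups.

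Psmb10, which takes the place of Psmb7, did not pass. Its log2 values were 11.03, 10.84, 11.75, 11.21 and 11.20 in TPlp+AxL 1 to 5, against 10.83, 10.99, 11.17, 10.80 and 10.96 in AxL 1 to 5 (probe set 1448632_at). The groups overlapped, and the highest value was again that of TPlp+AxL 3. The log2 change of 0.25 was not distinguishable from 0 (95% interval -0.06 to 0.56, limma adjusted p = 0.431).

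Psme1 encodes a subunit of the PA28 ring, which docks onto the proteasome and helps peptides to leave it. Its log2 values were 11.28, 11.03, 12.05, 11.48 and 11.42 in TPlp+AxL 1 to 5, against 10.97, 11.23, 11.35, 11.04 and 10.98 in AxL 1 to 5 (probe set 1417056_at). Only TPlp+AxL 3 stood clear of the AxL arrays by more than 0.5 log2 units. The log2 change was 0.34 (95% interval -0.01 to 0.68, limma adjusted p = 0.356).

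Nlrc5, a member of the NLR family that switches on class I genes and their helpers, had the smallest p-value of the members. Its log2 values were 8.46, 7.87, 9.27, 8.79 and 8.75 in TPlp+AxL 1 to 5, against 7.43, 7.23, 7.34, 7.39 and 7.34 in AxL 1 to 5 (probe set 1437176_at). The AxL arrays lay within 0.20 of each other, and the lowest TPlp+AxL array was 0.45 above the highest of them. Nlrc5 averaged 8.63 ± 0.51 in TPlp+AxL and 7.34 ± 0.07 in AxL (SD, n = 5 each) and rose 2.44-fold, with a 95% interval of 1.81 to 3.28 (log2 change 1.29, SE 0.20, limma adjusted p = 0.0109). It passed whichever single array was left out, with adjusted p-values from 0.000218 to 0.0415.

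Tap1 and Tap2 form 1 transporter, and only the Tap1 probe set of highest signal passed the threshold. It had log2 values of 8.63, 8.32, 9.26, 8.73 and 8.99 in TPlp+AxL 1 to 5, against 8.06, 8.004, 7.97, 8.09 and 8.15 in AxL 1 to 5 (probe set 1416016_at). All TPlp+AxL arrays were above all AxL arrays, with a gap of 0.17. Tap1 averaged 8.79 ± 0.36 in TPlp+AxL and 8.05 ± 0.07 in AxL (SD, n = 5 each) and rose 1.66-fold, with a 95% interval of 1.35 to 2.05 (log2 change 0.73, SE 0.14, limma adjusted p = 0.0343). The call was lost in 8 of the 10 fits that left out 1 array, all but those without TPlp+AxL 2 or TPlp+AxL 3. In those 8 the adjusted p ran from 0.0531 without TPlp+AxL 1 to 0.0928 without TPlp+AxL 5, and the log2 change was at least 0.68.

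Tap2 had log2 values of 8.49, 8.30, 8.80, 8.60 and 8.73 in TPlp+AxL 1 to 5, against 8.30, 8.13, 8.29, 8.43 and 8.30 in AxL 1 to 5 (probe set 1453913_a_at). The groups overlapped through TPlp+AxL 2 alone, which lay below 2 of the AxL arrays. The log2 change of 0.29 (95% interval 0.10 to 0.49) did not pass the threshold (limma adjusted p = 0.181). Whether Tap1 and Tap2 changed unequally was not tested.

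Tapbp encodes tapasin. Its log2 values were 10.39, 9.77, 11.16, 10.67 and 10.57 in TPlp+AxL 1 to 5, against 9.57, 9.88, 10.13, 9.85 and 9.82 in AxL 1 to 5 (probe set 1421812_at). TPlp+AxL 2 lay among the AxL arrays and the other 4 lay above them. The log2 change was 0.66, with a 95% interval of 0.21 to 1.11 and a limma adjusted p of 0.188. Without TPlp+AxL 2 it was 0.85 and passed (limma adjusted p = 0.0248).

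Tapbpl encodes the tapasin relative that edits peptides on class I molecules away from the transporter. Its log2 values were 8.11, 8.01, 8.21, 8.14 and 8.15 in TPlp+AxL 1 to 5, against 7.88, 7.89, 7.90, 7.83 and 7.97 in AxL 1 to 5 (probe set 1451544_at). The groups were apart by 0.04 log2 units. Tapbpl averaged 8.13 ± 0.07 in TPlp+AxL and 7.89 ± 0.05 in AxL (SD, n = 5 each) and rose 1.17-fold, with a 95% interval of 1.10 to 1.25 (log2 change 0.23, SE 0.04, limma adjusted p = 0.0293). This call was lost in 8 of the 10 fits without 1 array, all but those without TPlp+AxL 2 or AxL 5, with adjusted p-values there from 0.0516 without AxL 2 to 0.0964 without TPlp+AxL 4. It was also lost when each array's median was subtracted (limma adjusted p = 0.0519).

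With the 3 arrays of high choroid plexus markers left out together, 0 member probe sets passed in limma, and 9 had an unadjusted p under 0.05, against 10.5% of all probe sets. In that fit, of 4 TPlp+AxL and 3 AxL arrays, 1 probe set of the whole array passed. The log2 changes were then 1.72 for Psmb9, 1.40 for Psmb8, 1.32 for Nlrc5, 0.77 for Tap1 and 0.26 for Tapbpl, all at least as large as with all 10 arrays. With the mean of the choroid plexus markers as a covariate 1 member probe set passed, that of Nlrc5 (log2 change 1.26, limma adjusted p = 0.0302). Psmb9 then had a log2 change of 1.57 (limma adjusted p = 0.0527), Tap1 0.71 (adjusted p = 0.0798) and Tapbpl 0.24 (adjusted p = 0.0509).

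**Figure D2:**
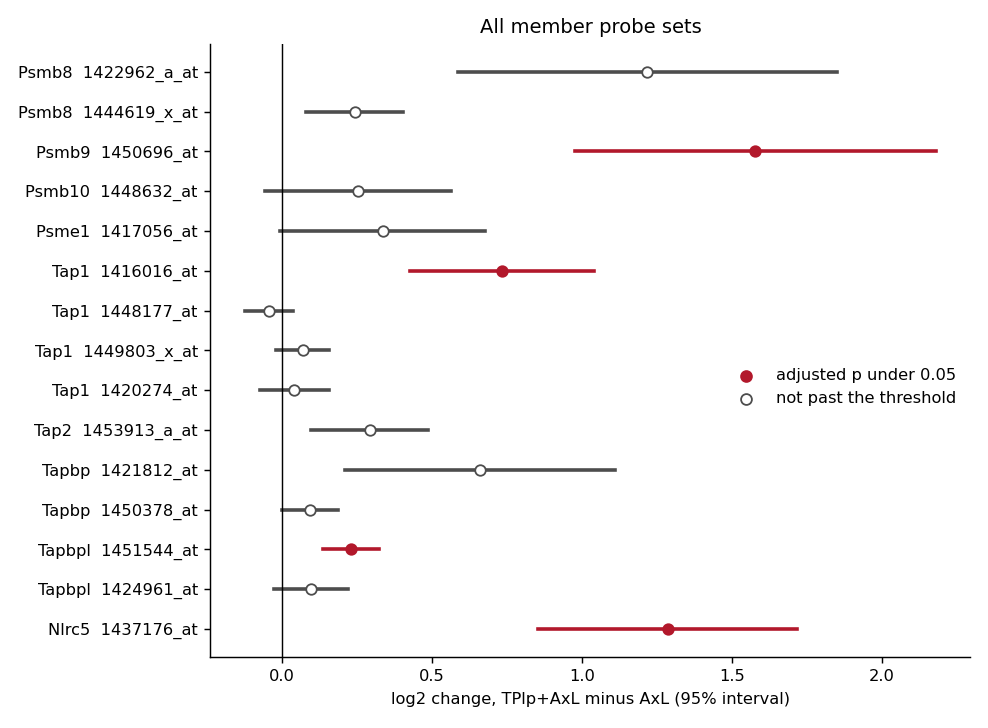
Log2 change, TPlp+AxL minus AxL, of all 15 member probe sets with the 95% interval of the limma fit. Filled red points passed the threshold of 0.05 on the adjusted p and open points did not. The 4 filled points are those of Psmb9, Tap1, Tapbpl and Nlrc5, and 14 of the 15 points lie right of 0.

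Genes with several probe sets did not give 1 answer. Tap1 had 4, and beside the probe set that rose by 0.73 the others had log2 changes of -0.04 (1448177_at), 0.07 (1449803_x_at) and 0.04 (1420274_at), none past the threshold (limma adjusted p = 0.621, 0.436 and 0.726). Probe sets 1416016_at and 1448177_at of Tap1 are annotated to the same sequence record, and the dimmer averaged 7.28 in TPlp+AxL and 7.32 in AxL. The same held for both genes of the tapasin family. The dimmer Tapbp probe set (1450378_at) had a log2 change of 0.10 (limma adjusted p = 0.335) beside 0.66, and the dimmer Tapbpl probe set (1424961_at) had 0.10 (limma adjusted p = 0.445) beside 0.23. In each of these genes the brightest probe set had the largest change. Why probe sets of 1 gene differed was not tested, and the differences between them carry no test.

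The 9 genes were ordered alike within TPlp+AxL. TPlp+AxL 3 was the highest of its group and TPlp+AxL 2 the lowest for all 9 genes. That pattern was present in 5.32% of all genes, and in 53 of the 178 genes called higher (29.8%). TPlp+AxL 2 was the lowest of its group, whichever array was highest, in 28.0% of all genes. The same held for 140 of the 178 genes called higher (78.7%), so a low TPlp+AxL 2 was not particular to the members. Taken gene by gene as the distance from the AxL mean, the median over the 9 genes was 0.54, 0.12, 1.21, 0.68 and 0.72 in TPlp+AxL 1 to 5, against -0.04, 0.03, 0.15, -0.07 and 0.01 in AxL 1 to 5. For Psmb9 the distance was 2.61 in TPlp+AxL 3 and 0.67 in TPlp+AxL 2. For Psmb10, Psme1 and Tapbp, TPlp+AxL 2 lay below the AxL mean (-0.11, -0.08 and -0.08). The SD was larger in TPlp+AxL than in AxL for all 9 genes, against 31.3% of all genes. These counts describe the arrays, since the 9 genes were measured in the same mice.

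**Figure D3:**
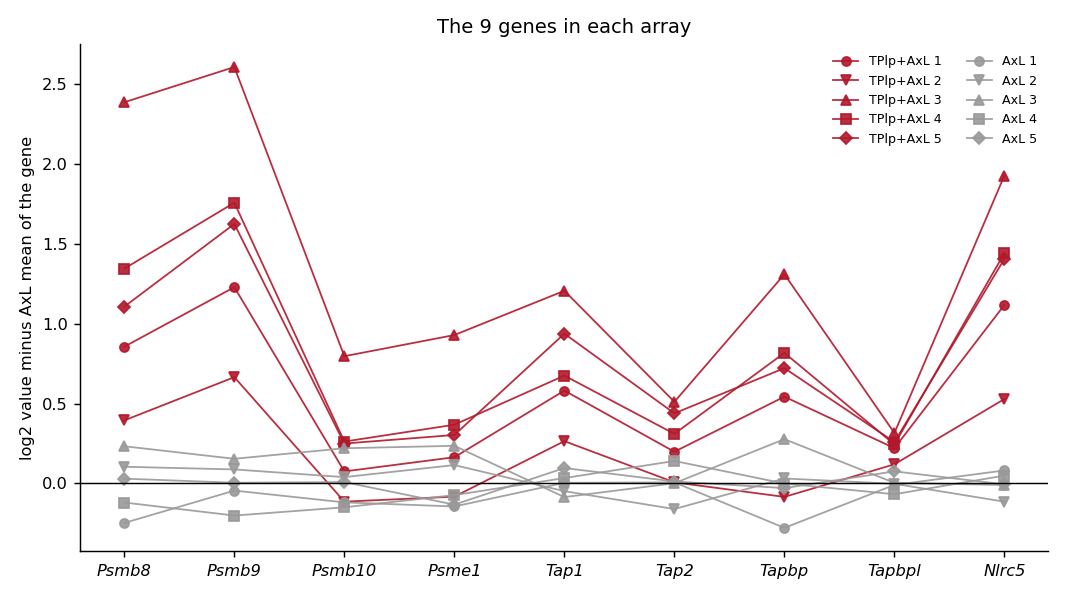
Log2 value minus the AxL mean of the same gene, for the brightest probe set of the 9 genes. Each line is 1 array, red for TPlp+AxL and grey for AxL, with a marker shape for each replicate number. The line of TPlp+AxL 3 is the highest at every gene and that of TPlp+AxL 2 is the lowest of the red lines, down to -0.11 at Psmb10.

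Each inducible subunit was set against the constitutive subunit it replaces, within each array, so that an equal shift of a whole array drops out. A shift that differs with signal level, as described above, does not drop out fully where the 2 subunits differ in level. The constitutive subunits themselves had log2 changes of -0.18 (Psmb5), -0.15 (Psmb6) and -0.27 (Psmb7). None of the 3 passed the threshold (smallest limma adjusted p = 0.191, 2 lower with an unadjusted p under 0.05), and at their signal level the median of all probe sets was itself below 0. The difference Psmb9 minus Psmb6 was -1.76, -2.27, -0.53, -1.24 and -1.29 in TPlp+AxL 1 to 5, against -3.02, -3.14, -3.32, -3.28 and -2.96 in AxL 1 to 5. All TPlp+AxL arrays were above all AxL arrays, by a gap of 0.68.

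The inducible subunit moved up relative to its partner in all 3 pairs. The difference of changes was 1.73 for Psmb9 and Psmb6, 1.40 for Psmb8 and Psmb5 and 0.52 for Psmb10 and Psmb7. Each had an exact two-sided permutation p of 0.00794 over 252 relabellings of the 10 arrays, the smallest that 5 against 5 arrays can give, and adjusted over the 3 pairs it was also 0.00794. With same-numbered arrays taken as pairs, the exact p was 0.0625 each, also the smallest possible. The test was chosen with earlier results of these data known. Psmb8 and Psmb9 were already apart between the groups singly, so the p-values of their pairs add little to that. Psmb8 minus Psmb5 was -2.08, -2.46, -0.60, -1.50 and -1.67 in TPlp+AxL 1 to 5, against -3.22, -3.05, -3.11, -3.00 and -2.93 in AxL 1 to 5. Psmb10 and Psmb7 did not pass singly, and their log2 changes of 0.25 and -0.27 both entered the difference of 0.52. For Psmb10 minus Psmb7 the values were -0.55, -0.71, 0.03, -0.34 and -0.25 in TPlp+AxL 1 to 5, against -0.81, -1.03, -0.89, -0.91 and -0.81 in AxL 1 to 5. The gap between the groups in that pair was 0.10. The test shows unequal change of the 2 probe sets of a pair and gives no ratio of subunits, since probe sets differ in how strongly they bind. After a repeated quantile normalization the differences were 1.65 for Psmb9, 1.32 for Psmb8 and 0.52 for Psmb10 (exact permutation p = 0.00794 each). Without the 3 arrays of high choroid plexus markers they were 1.81, 1.53 and 0.59 (exact permutation p = 0.0571 each, the smallest that 4 against 3 arrays can give).

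**Figure D4:**
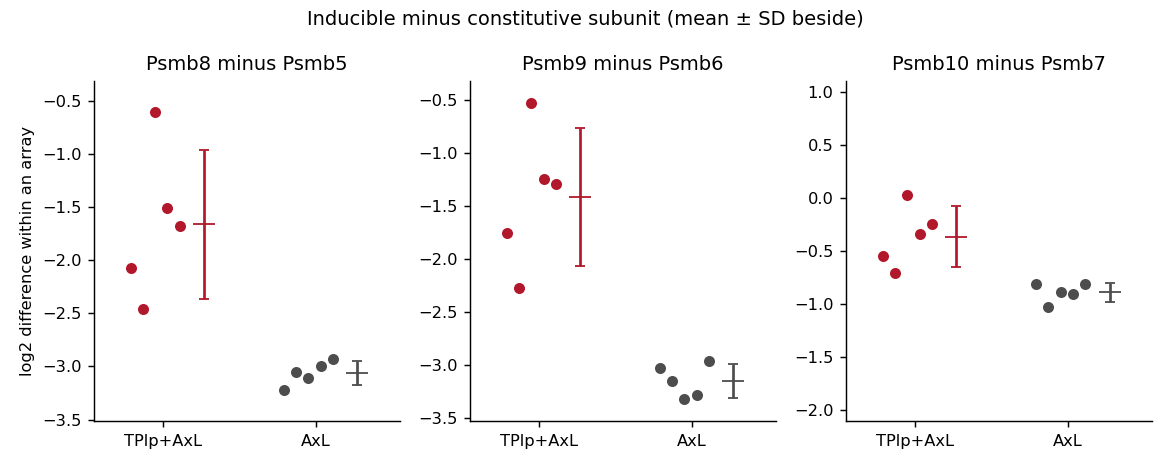
Log2 value of the inducible subunit minus that of the constitutive subunit on the same array, for the 3 pairs. Each point is 1 array in the order of replicate numbers 1 to 5, TPlp+AxL left and AxL right, with the mean ± SD (n = 5) beside. The groups are apart in all 3 panels, by 0.47, 0.68 and 0.10 log2 units.

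In the RefSeq annotation of GRCm38.p6, Psmb9, Tap1, Psmb8 and Tap2 are consecutive genes on chromosome 17, within the MHC class II region. Their log2 changes by brightest probe set were 1.58, 0.73, 1.22 and 0.29. Psmb9 and Tap1, which both rose, are read in opposite directions from starts that have 225 bases between them. The window of 250 bases before to 50 bases after the annotated start of Psmb9 is shown for that reason (chr17:34187281-34187580, minus strand, RefSeq, GRCm38.p6), with the bases between both starts in capitals. The window of Psmb8 (chr17:34197945-34198244, plus strand) is shown with the interferon gamma activation motif TTCNNNGAA in capitals. That of Psme1 (chr14:55578244-55578543, plus strand) is shown with the interferon-stimulated response element core in capitals, which reads GAAA, any 2 bases and GAAA again on the other strand.
Psmb9: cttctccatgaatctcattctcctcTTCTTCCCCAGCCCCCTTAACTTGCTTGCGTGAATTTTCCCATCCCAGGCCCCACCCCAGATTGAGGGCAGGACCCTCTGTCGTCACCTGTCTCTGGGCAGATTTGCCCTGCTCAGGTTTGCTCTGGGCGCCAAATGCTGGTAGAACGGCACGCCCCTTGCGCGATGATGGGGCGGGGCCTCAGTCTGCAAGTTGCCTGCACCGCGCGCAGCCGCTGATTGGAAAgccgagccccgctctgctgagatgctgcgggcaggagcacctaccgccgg
Psmb8: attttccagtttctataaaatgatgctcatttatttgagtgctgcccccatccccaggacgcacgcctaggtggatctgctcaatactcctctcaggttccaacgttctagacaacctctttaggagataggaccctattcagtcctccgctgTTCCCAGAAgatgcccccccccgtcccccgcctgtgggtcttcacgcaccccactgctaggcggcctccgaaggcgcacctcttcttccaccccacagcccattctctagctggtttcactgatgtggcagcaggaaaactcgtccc
Psme1: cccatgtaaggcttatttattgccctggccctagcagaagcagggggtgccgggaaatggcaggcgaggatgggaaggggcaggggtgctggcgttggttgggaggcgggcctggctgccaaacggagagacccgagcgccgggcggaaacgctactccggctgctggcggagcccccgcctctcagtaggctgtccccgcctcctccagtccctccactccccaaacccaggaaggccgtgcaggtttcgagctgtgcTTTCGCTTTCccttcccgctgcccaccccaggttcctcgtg

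Both motifs were searched on both strands of 8 windows of 7 member genes, which were Psmb8, Psmb9, Psmb10, Psme1, Psme2 (2 windows), Tap1 and Tapbp. The letters TTCNNNGAA were present in 1 of the 8 windows, that of Psmb8, starting 97 bases before the gene start, and in 8.3% of 32851 windows of the same length. The response element core was present in 1 of the 8, that of Psme1, starting 9 bases after the gene start, and in 3.44% of all windows. None of the 8 windows held both motifs. Neither motif was present in the windows of Psmb9, Tap1, Psmb10, Psme2 and Tapbp. The windows of Psmb9 and Tap1 share 275 bases and the 2 of Psme2 also overlap, so the 8 windows are not separate promoters. No window was available for Tap2, Tapbpl and Nlrc5. Only these exact letters within the 300 bases of a window were searched.

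No listed gene of the rest of the proteasome passed the threshold on the deposited values. Of 11 other core subunits 0 passed in either direction in limma (0 with an unadjusted p under 0.05), with a median log2 change of -0.08 that was 0.04 after cyclic loess normalization. The 2 of smallest p were Psmb2 at -0.14 (adjusted p = 0.371) and Psma1 at -0.10 (adjusted p = 0.399). Among 17 measured subunits of the regulatory cap, which recognises and unfolds tagged proteins, 0 passed (1 higher and 3 lower with an unadjusted p under 0.05). Their median was -0.15, or -0.05 after cyclic loess normalization, where 1 was higher, and Psmd4, a ubiquitin receptor, had -0.23 (limma adjusted p = 0.181). Psmd8, also of the cap, had a log2 change of -0.20 (limma adjusted p = 0.194). Of 8 other activators and assembly factors 0 passed in limma (1 lower with an unadjusted p under 0.05). Their median was -0.07, or 0.01 after cyclic loess normalization, and Psme3, a nuclear activator related to Psme1, had -0.15 (limma adjusted p = 0.243). Psmg3, an assembly chaperone of the core, had -0.08 (limma adjusted p = 0.627). Of 3 half-transporters related to Tap, Abcb8, Abcb9 and Abcb10, 0 passed by brightest probe set (0 with an unadjusted p under 0.05), with a median of -0.05. Abcb9 had a log2 change of -0.05 (limma adjusted p = 0.648) and Abcb10 of -0.08 (limma adjusted p = 0.679). Dimmer probe sets of named genes did not all share the sign. Positive ones were 0.10 for Abcb9 (limma adjusted p = 0.326, unadjusted p = 0.0404), 0.04 for Abcb10, 0.08 for Psmd4, 0.05 for Psmg3, 0.01 for Psme3 and 0.01 to 0.07 for Psma1. Further probe sets of Abcb9, Abcb10, Psmd4 and Psme3 were negative, and none of these passed.

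**Figure D5:**
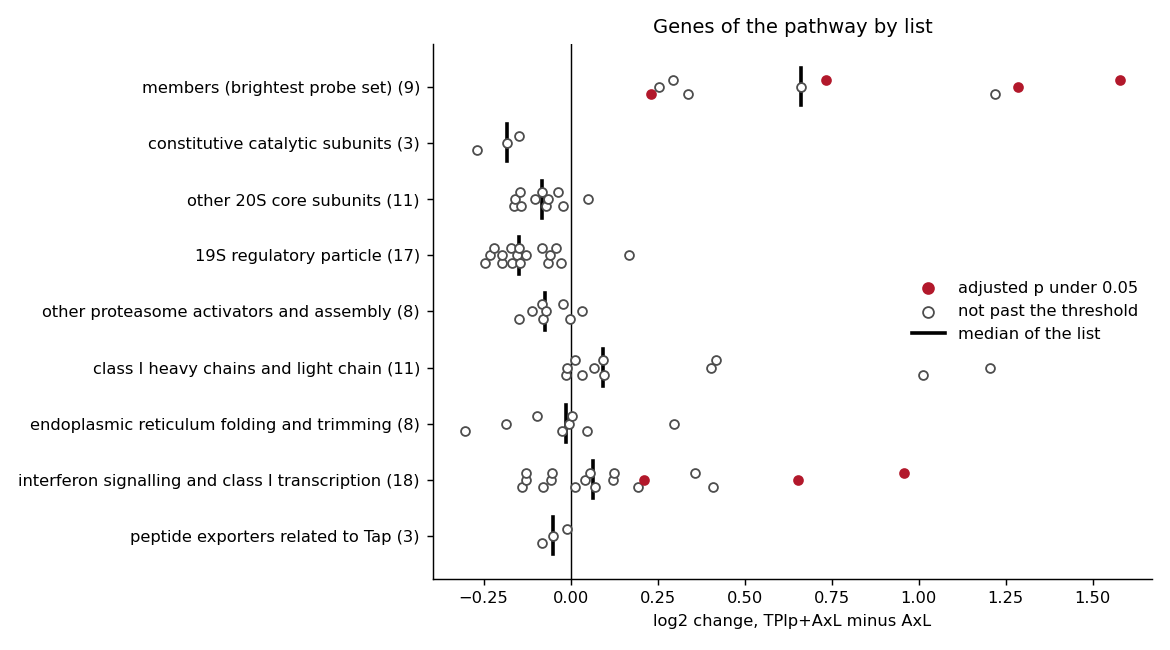
Log2 change, TPlp+AxL minus AxL, of each measured gene by its brightest probe set, for the 9 member genes and 8 lists of the pathway, with the number of genes in parentheses. Filled red points passed the threshold of 0.05 on the adjusted p, open points did not, and the black bar is the median of the list. The members' median is 0.66, and the medians of the other lists run from -0.18 to 0.09.

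Class I molecules are the end point of this pathway. Of the 21 genes listed for heavy chains and the light chain, 11 were measured by a probe set of a single symbol, 0 passed in either direction in limma (4 higher with an unadjusted p under 0.05) and their median log2 change was 0.09. H2-D1, a classical heavy chain, had log2 values of 10.37, 9.58, 11.24, 10.46 and 11.00 in TPlp+AxL 1 to 5, against 9.11, 8.82, 9.25, 10.09 and 9.36 in AxL 1 to 5. The groups overlapped through TPlp+AxL 2 and AxL 4 (log2 change 1.21, limma adjusted p = 0.108). A further 8 probe sets of H2-D1 had log2 changes of 0.07 to 0.81, none past the threshold. H2-M3, which presents formylated peptides, had a log2 change of 0.42 with groups apart (limma adjusted p = 0.0688), and it passed after cyclic loess normalization (log2 change 0.44, adjusted p = 0.0410). H2-K1, also a classical heavy chain, had a log2 change of 1.01 (limma adjusted p = 0.118), and B2m, the light chain, of 0.40 (limma adjusted p = 0.269). The remaining measured genes of the list, among which the median lay, had log2 changes from -0.01 to 0.10. Heavy chain genes are close copies of each other and vary between strains, so their probe sets may read several of them. Among 8 folding and trimming factors of the endoplasmic reticulum 0 passed (1 higher and 1 lower with an unadjusted p under 0.05), with a median of -0.01, or 0.10 after cyclic loess normalization. Erap1, which trims peptides before loading, had a log2 change of 0.30 (limma adjusted p = 0.161), and Calr, a chaperone of class I heavy chains, had -0.19 (limma adjusted p = 0.256).

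Of 18 measured genes of interferon signalling and class I transcription 3 rose, 0 fell and the median log2 change was 0.06 (1 lower with an unadjusted p under 0.05). Irf1, a transcription factor that interferon gamma induces and that acts on class I and immunoproteasome genes, had log2 values of 10.39, 9.71, 10.30, 10.42 and 10.63 in TPlp+AxL 1 to 5, against 9.34, 9.30, 9.32, 9.37 and 9.34 in AxL 1 to 5. It was clear of the AxL arrays on every TPlp+AxL array (log2 change 0.96, limma adjusted p = 0.00644). Its highest array was TPlp+AxL 5, where the members had TPlp+AxL 3. Its lowest was TPlp+AxL 2, as for the members and for 78.7% of all genes called higher. Irf8, a factor of myeloid cells, rose by 0.65 (limma adjusted p = 0.0204), and its other probe set by 0.37 (limma adjusted p = 0.00956). Ifngr1, a chain of the interferon gamma receptor, rose by 0.21 (limma adjusted p = 0.0367).

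Ifng, the interferon gamma transcript itself, had log2 values of 7.16, 6.62, 6.98, 7.01 and 7.18 in TPlp+AxL 1 to 5, against 6.65, 6.57, 6.55, 6.60 and 6.54 in AxL 1 to 5. TPlp+AxL 2 was level with the AxL arrays and the other 4 lay above them. The log2 change of 0.41 did not pass the threshold (limma adjusted p = 0.0706).

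Some markers of T cells, monocytes, neutrophils and leukocytes in general also rose. Of 10 measured T cell markers 4 rose (Ms4a4b, Gimap4, Cd3g and Cd3d) and 1 fell (Thy1, which neurons express strongly, and which did not pass after cyclic loess normalization, adjusted p = 0.264), and the mean of the list ran from 8.39 to 8.71 in TPlp+AxL and from 8.05 to 8.09 in AxL. Cd3g, a chain of the T cell receptor complex, had 7.48, 7.33, 8.06, 8.01 and 7.48 in TPlp+AxL 1 to 5, against 6.70, 6.94, 6.76, 6.88 and 6.74 in AxL 1 to 5. For Cd3g and Cd3d TPlp+AxL 3 was the highest of its group and TPlp+AxL 2 the lowest. Ms4a4b and Gimap4 were highest in TPlp+AxL 4 (8.67 and 8.73) and also lowest in TPlp+AxL 2. Cd4 and Cd8a, the coreceptors of T cells, had log2 changes of 0.06 and 0.02 and did not pass (limma adjusted p = 0.525 and 0.906). Of 8 monocyte and neutrophil markers 6 rose and 0 fell (0 lower with an unadjusted p under 0.05), with list means of 9.47 to 9.75 in TPlp+AxL and 8.41 to 8.84 in AxL. Of 6 general leukocyte markers 2 rose (Ptprc and Cytip), with list means of 10.05 to 10.44 in TPlp+AxL and 9.75 to 9.98 in AxL. The deposited values carry no background measure, so no marker could be called absent from either group. Of 8 microglial markers 0 passed in limma (1 higher with an unadjusted p under 0.05), with list means of 10.16 to 10.42 in TPlp+AxL and 10.27 to 10.42 in AxL, and of 7 endothelial markers 0 passed (4 lower with an unadjusted p under 0.05). All 7 endothelial log2 changes were negative, with a median of -0.17, and Tek, an endothelial receptor, was called lower after cyclic loess normalization (adjusted p = 0.0457) and after a repeated quantile normalization (adjusted p = 0.0299). The part of these cells in the changes of the members was not tested.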

How the data were processed

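Total RNA of whole hippocampi was hybridised to Affymetrix arrays, 1 mouse an array. The deposited values are log2 expression summaries by RMA, a step named in the submitters' processing notes. Its software version and the chip definition are not given in these sources. Control probe sets (64) were left out, and 45037 were tested with no filter. Symbols came from the platform annotation, updated through Entrez identifiers with a GRCm38.p6 gene table (34741 of 34945 single-symbol probe sets matched). A gene was represented by its brightest probe set over the 10 arrays.

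The main comparison used limma 3.58.1 in R 4.3.3 (lmFit and eBayes without trend), p-values adjusted by Benjamini-Hochberg across the whole table, a threshold of 0.05 and 95% intervals from the same fit, and each change is the TPlp+AxL mean minus the AxL mean. The 3 subunit pairs used an exact permutation test, two-sided. The fit was tested on simulated data. The number of arrays limits the precision. Members, lists and tests were chosen with earlier results of these data known. Of each pathway list, up to 4 genes past the threshold are named, or the 2 of smallest p. Marker genes, and further members of a pathway list, are named after their values were seen. Motif sequences come from RefSeq promoter windows. Alternatives covered variance, filtering, scaling, normalization, array weights, probe set choice, threshold, replicate block and each array left out; leaving out or adjusting for choroid plexus markers was added after seeing the data.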

Additional observations from a re-analysis of the deposited data

Results flagged for a closer look

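In 5 of 72 groups of 5 arrays tested, 1 array lay far from the other 4 relative to the range of its group, where chance gives about 1 in 20 groups. In TPlp+AxL these were the dimmer Psmb8 probe set 1444619_x_at, at 6.93 in TPlp+AxL 3 against 6.59 to 6.69 on the other arrays of that group, Psmb2 at 11.48 in TPlp+AxL 3 against 11.23 to 11.28, and Irf8 at 8.95 in TPlp+AxL 2 against 9.48 to 9.57. In AxL they were Psma1 at 11.81 in AxL 3 against 11.62 to 11.66 and Psmd4 at 11.49 in AxL 2 against 11.81 to 11.87. The number of flags is near that rate, and why these arrays lay apart was not tested. None of the 4 member probe sets that rose was among those flagged.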

How the results depend on the processing

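Of the 15 member probe sets, 14 kept their direction under every alternative run; Tap1 probe set 1420274_at had a log2 change of -0.0068 without the 3 arrays of high choroid plexus markers, against 0.04 with all. The 4 member calls became 2 with the replicate block, 1 with the choroid plexus covariate and 0 without the 3 arrays; without 1 array they were 1 (TPlp+AxL 4, TPlp+AxL 5 or AxL 1), 2 (TPlp+AxL 1, AxL 2, AxL 3, AxL 4 or AxL 5), 4 (TPlp+AxL 3) or 6 (TPlp+AxL 2). Calls over all 45037 probe sets were 376, with 753 under array weights, 757 at an adjusted p under 0.10, 241 with the replicate block, 185 to 460 without 1 array and 1 without the 3 arrays (4743 with an unadjusted p under 0.05). The lowest was without TPlp+AxL 4 and the highest without AxL 2; it was 240 without TPlp+AxL 3, 243 without TPlp+AxL 5 and 220 without AxL 5. Higher calls were 77.4% of the 376, 56.2% after array medians were subtracted and 89.0% after cyclic loess normalization. The differences between subunits of a pair were 1.40 (Psmb8), 1.73 (Psmb9) and 0.52 (Psmb10). With the replicate block their exact p was 0.0625, the smallest that 5 pairs of arrays allow. They were 1.53, 1.81 and 0.59 without the 3 arrays (exact p = 0.0571, also the smallest possible). Without 1 array they ran from 1.13 to 1.599, 1.503 to 1.94 and 0.43 to 0.61 (exact p = 0.0159 each). With the mean of all probe sets of each gene they were 0.91, 1.73 and 0.52. After a repeated quantile normalization they were 1.32, 1.65 and 0.52 (exact permutation p = 0.00794 in both settings). Same-numbered arrays deviated from their group means with correlations of -0.13, 0.36, 0.27, -0.22 and -0.08, and 1 of 5 numbers correlated best with its own. This check cannot decide whether the replicate numbers pair the mice, since 1 match of 5 can arise with or without pairing. The main fit had no replicate block. With the replicate block Tap1 (limma adjusted p = 0.0598) and Tapbpl (adjusted p = 0.0912) lost their calls. The deposited values carry no background measure, so the signal limit of dim probe sets is unknown.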

Other observations

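Most genes called higher did not have the highest and lowest TPlp+AxL arrays of the members, which 53 of the 178 (29.8%) had. That order was not particular to the members. B2m, H2-K1, H2-D1, H2-M3, Erap1, Irf2 and Irf9, none of them called, also had TPlp+AxL 3 highest and TPlp+AxL 2 lowest. Others of the same lists, such as H2-T3, Calr and Irf8, did not. Chil3, a chitinase-like protein that myeloid cells secrete, had log2 values of 10.63, 10.63, 10.30, 10.54 and 10.20 in TPlp+AxL 1 to 5, against 7.84, 8.08, 8.72, 8.51 and 8.24 in AxL 1 to 5 (log2 change 2.18, limma adjusted p = 0.000282). TPlp+AxL 2, the lowest array for all 9 members, was near the top for Chil3, and TPlp+AxL 3, the highest for the members, was the second lowest. S100a8, a neutrophil protein, had 10.39, 9.64, 9.75, 10.05 and 9.84 in TPlp+AxL 1 to 5, against 8.50, 9.14, 9.21, 8.88 and 8.24 in AxL 1 to 5 (log2 change 1.14, limma adjusted p = 0.0185), with TPlp+AxL 1 the highest and TPlp+AxL 2 the lowest of its group. Plac8, expressed by monocytes and lymphocytes, had 10.59, 10.21, 11.70, 10.91 and 10.30 in TPlp+AxL 1 to 5, against 8.87, 9.02, 8.70, 8.80 and 8.70 in AxL 1 to 5, with the highest and lowest arrays of TPlp+AxL the same as for the members (log2 change 1.92, limma adjusted p = 0.00281). All genes named here were chosen after their values were seen, and the difference in order was not tested.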
